A study of Homo sapiens with 10 samples.

Results

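NF-kB is a family of dimeric transcription factors that switches on inflammatory and survival genes. The 10 genes described here encode its 5 subunits (NFKB1, NFKB2, RELA, RELB and REL), 3 inhibitors that hold the dimers in the cytoplasm (NFKBIA, NFKBIB and NFKBIE) and a pair of proteins that switch off signalling upstream of them (TNFAIP3 and its partner TNIP1). They were taken by gene symbol, and all 10 were among the 12540 genes of the deposited count table. The cells were SRA01-04, an established line of human lens epithelium. They were transfected either with a plasmid for RORα, the nuclear receptor made from RORA, or with an empty plasmid. Both groups were given 10 µM selenite, a selenium salt used to model cataract, 48 h after transfection, for 24 h. Each had 5 libraries, called OE1 to OE5 for RORα overexpression and EV1 to EV5 for the empty vector. All of the cells had selenite and a plasmid and the labels name 1 line only, so no value describes untreated lens cells.

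In resting cells, inhibitors of the IkB family mask the nuclear localisation signal of NF-kB dimers. Signals from cytokine and pattern recognition receptors activate the IkB kinases (IKK), which mark IkB for destruction, and the freed dimers enter the nucleus. In the canonical arm these are mainly dimers of RELA with the processed NFKB1 product. In the non-canonical arm the NFKB2 precursor is processed and pairs with RELB. Several genes of the system, NFKBIA and TNFAIP3 among them, are themselves textbook NF-kB targets, so that the pathway makes its own brakes.

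All 10 genes rose with RORα overexpression, by 1.15-fold for RELA to 3.05-fold for NFKB2 (edgeR quasi-likelihood test, Benjamini-Hochberg adjusted p under 0.05 over 12520 genes tested). For each of the 10, the lowest overexpression library stood above the highest empty vector library. Over all genes tested, 56.1% passed the test, 28.6% upward and 27.5% downward. The overexpression libraries lay entirely above those of the empty vector for 20.8% of all genes and entirely below them for 18.9%. At least 2-fold rises were seen in 5 of the 10, NFKB2, TNFAIP3, TNIP1, RELB and NFKBIE, against 3.28% of all genes, and none of the 10 fell 2-fold, against 1.74% of all genes. The median log2 fold change of the 10 was 1.01, beside 0.00 for all genes tested. The genes were proposed with earlier results of these data known, so these counts describe them and are not independent evidence.

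Libraries held 17475342 to 21956761 counts, and levels are given as CPM, a gene's counts scaled to the size of its library. RORA stood at 41.7, 42.5, 39.4, 44.0 and 38.6 CPM in OE1 to OE5, against 16.4, 14.8, 17.0, 11.2 and 15.5 CPM in EV1 to EV5 (log2 fold change 1.46 ± 0.0726 SE, edgeR adjusted p = 4.35e-20), and gene counts do not separate plasmid from chromosomal transcripts. Of 24 lens markers 9 were in the table, and a marker missing from the table is not shown to be unexpressed. VIM, the filament protein vimentin, rose to 2065 CPM with RORα, against 1526 CPM with empty vector. KRT18, BFSP1 and CRYAB fell, with log2 fold changes of -1.80, -0.65 and -1.95. CRYAB was scarce, at 0.370 CPM with RORα and 1.43 CPM with empty vector, so its change rests on few counts. BFSP1 averaged 4.80 CPM with RORα and 7.51 CPM with empty vector. The other 5 did not pass, among them PAX6 at 20.9 CPM with RORα and 19.6 CPM with empty vector. Of the 9, 44.4% were called, beside 56.1% of all genes. All 9 summed to 2212 to 2253 CPM with RORα and 1811 to 1913 CPM with empty vector, and the 8 besides VIM to 164 to 177 CPM with RORα and 325 to 347 CPM with empty vector. KRT18 alone averaged 69.6 CPM with RORα and 242 CPM with empty vector, and the difference in those 8 lay mainly in KRT18. Of 14 immune cell markers 2 were in the table, CD14, which fell, and CSF1R, which did not pass, and together they reached 2.16 to 3.12 CPM with RORα and 4.09 to 5.70 CPM with empty vector. The part of these markers in the results below was not tested. In bulk RNA, fewer cells carrying a transcript and less of it per cell cannot be told apart. Whether the replicates came from separate cultures is not stated in the labels, and p-values measure only the spread between these samples.

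Since some of these genes are known NF-kB targets, their promoter sequences were examined. RefSeq promoter windows (GRCh38.p14, 250 bases before to 50 after an annotated start) were found for 8 of the 10 genes, 14 windows in all, and not for RELB and NFKBIE. Both strands were searched for the kappaB decamer, the 10-base consensus that NF-kB dimers bind. It was present in at least 1 window of 7 of the 8 genes and in 8 of the 14 windows. Among all 35116 windows 11.3% held a match, and among the 10198 genes of the table with a window 17.6% had at least 1. RELA was the gene without a match in either of its windows. AGGTCA, the core half-site that RORα binds, was in none of the 14 windows on either strand, beside 13.8% of all windows, which says nothing of sites farther away. A match is a string of letters and not evidence of binding.

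Windows of NFKB2, TNFAIP3, NFKBIA and RELA are shown. NFKB2 and TNFAIP3 had the largest rises of the 10, NFKBIA is a textbook NF-kB target, and RELA had the smallest rise. Each window is written 5′ to 3′ on the gene's strand, with capitals for kappaB decamers on either strand.
NFKB2, chr10:102394328-102394627, plus strand: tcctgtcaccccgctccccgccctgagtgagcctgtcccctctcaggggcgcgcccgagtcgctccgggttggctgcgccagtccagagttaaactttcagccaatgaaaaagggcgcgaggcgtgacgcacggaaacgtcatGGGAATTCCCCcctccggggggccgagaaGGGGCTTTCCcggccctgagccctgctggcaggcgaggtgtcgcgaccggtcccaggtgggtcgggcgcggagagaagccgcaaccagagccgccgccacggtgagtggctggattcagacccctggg
TNFAIP3, chr6:137867009-137867308, plus strand: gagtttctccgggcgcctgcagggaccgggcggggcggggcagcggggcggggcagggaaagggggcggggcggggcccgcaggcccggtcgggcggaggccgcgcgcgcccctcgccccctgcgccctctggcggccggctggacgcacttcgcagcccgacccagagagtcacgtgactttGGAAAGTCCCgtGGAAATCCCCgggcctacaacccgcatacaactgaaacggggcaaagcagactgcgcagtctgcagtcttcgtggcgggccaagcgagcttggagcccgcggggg
NFKBIA, chr14:35404700-35404999, minus strand: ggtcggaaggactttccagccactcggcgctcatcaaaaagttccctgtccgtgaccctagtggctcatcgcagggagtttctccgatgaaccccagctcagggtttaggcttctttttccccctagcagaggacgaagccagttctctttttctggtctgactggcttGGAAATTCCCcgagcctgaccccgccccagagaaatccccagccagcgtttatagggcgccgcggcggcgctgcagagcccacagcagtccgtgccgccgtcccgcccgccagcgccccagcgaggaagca
RELA, chr11:65662867-65663166, minus strand: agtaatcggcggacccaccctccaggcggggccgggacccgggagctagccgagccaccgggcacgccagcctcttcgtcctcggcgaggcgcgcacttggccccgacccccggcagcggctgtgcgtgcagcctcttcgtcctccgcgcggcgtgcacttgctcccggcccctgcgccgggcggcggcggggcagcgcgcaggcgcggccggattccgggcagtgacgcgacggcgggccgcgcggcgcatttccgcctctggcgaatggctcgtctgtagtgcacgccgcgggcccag
In this NFKB2 window the matches began 107 and 78 bases before the start, and the first of them matched on both strands. Of the 3 NFKB2 windows, the most upstream, at chr10:102393860-102394159, held no match. TNFAIP3 held 2 matches, 67 and 55 bases before its start, and NFKBIA held 1, which began 81 bases before its start.

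For the other 4 genes with a match, the decamer nearest to the start and its flanks are given, to show how its letters vary among the genes.
NFKB1, chr4:102501300-102501329, plus strand: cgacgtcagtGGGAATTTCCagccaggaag
REL, chr2:60881517-60881547, plus strand: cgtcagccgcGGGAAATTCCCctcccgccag
TNIP1, chr5:151081057-151081086, minus strand: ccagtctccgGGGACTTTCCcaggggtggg
NFKBIB, chr19:38899931-38899961, plus strand: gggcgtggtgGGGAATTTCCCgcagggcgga
These began 49 bases before the start in NFKB1, 47 in REL, 42 in TNIP1 and 28 in NFKBIB. The NFKBIB window held a further match 38 bases after its start. NFKBIB and RELA, with and without a match, had the smallest rises of the 10. The NFKB2 window that starts farther downstream, at chr10:102395455-102395754, held another 2 matches, the nearer of them 21 bases before its start: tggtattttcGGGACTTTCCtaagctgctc

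NFKB2 (ENSG00000077150, chr10:102394110-102402529, plus strand, GRCh38) encodes the precursor that is processed to the DNA-binding subunit of the non-canonical dimer and that, unprocessed, acts as an inhibitor. It stood at 432, 431, 463, 439.9 and 461 CPM in OE1 to OE5, against 144, 135, 148, 155 and 148 CPM in EV1 to EV5. Every overexpression library exceeded every empty vector library by a wide margin, the nearest pair differing 2.79-fold. The log2 fold change was 1.61 ± 0.0342 (SE; edgeR adjusted p = 1.32e-32), and 147 of 12520 genes had a larger rise. RELB (ENSG00000104856, chr19:45001430-45038198, plus strand), the partner that carries the activation domain, stood at 90.0, 85.6, 95.3, 85.8 and 92.5 CPM in OE1 to OE5, against 35.9, 36.0, 30.1, 35.4 and 37.5 CPM in EV1 to EV5. Its groups were also far apart, and EV3 was the low library of its group. The log2 fold change was 1.36 ± 0.0505 (edgeR adjusted p = 2.22e-24), larger than for 98.3% of genes.

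NFKB1 (ENSG00000109320, chr4:102501329-102617302, plus strand), precursor of the canonical DNA-binding subunit, stood at 141, 132, 142, 139 and 138 CPM in OE1 to OE5, against 87.6, 87.6, 87.5, 90.4 and 89.6 CPM in EV1 to EV5. The empty vector libraries differed by little, with a coefficient of variation of 1.55%. Its log2 fold change was 0.65 ± 0.0361 (edgeR adjusted p = 1.67e-18). RELA (ENSG00000173039, chr11:65653596-65663094, minus strand), the canonical activating subunit, stood at 229.6, 214, 241, 228 and 226 CPM in OE1 to OE5, against 198, 195, 189, 207 and 198 CPM in EV1 to EV5. Here the groups came close, with OE2 at 1.03 times EV4. The log2 fold change was 0.21 ± 0.0340 (edgeR adjusted p = 2.25e-06), and 3067 genes had a larger rise.

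REL (ENSG00000162924, chr2:60881521-60931610, plus strand), the subunit best known from lymphocytes, had the lowest counts of the 10. Its libraries stood at 9.81, 11.6, 8.81, 10.7 and 10.4 CPM in OE1 to OE5, against 5.76, 5.08, 7.66, 4.57 and 6.39 CPM in EV1 to EV5. The groups did not overlap, but the coefficient of variation was 10.2% with RORα and 20.4% with empty vector, the widest spread of the 10. The log2 fold change was 0.80 ± 0.115 (edgeR adjusted p = 1.72e-07). In GENCODE 29, 43.3% of its exon bases also belong to a non-coding gene on the same strand, so its count may miss or share reads. On log2(FPKM + 1), where the added 1 exceeds the FPKM of REL, the limma difference was 0.13.

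**Figure D1:**
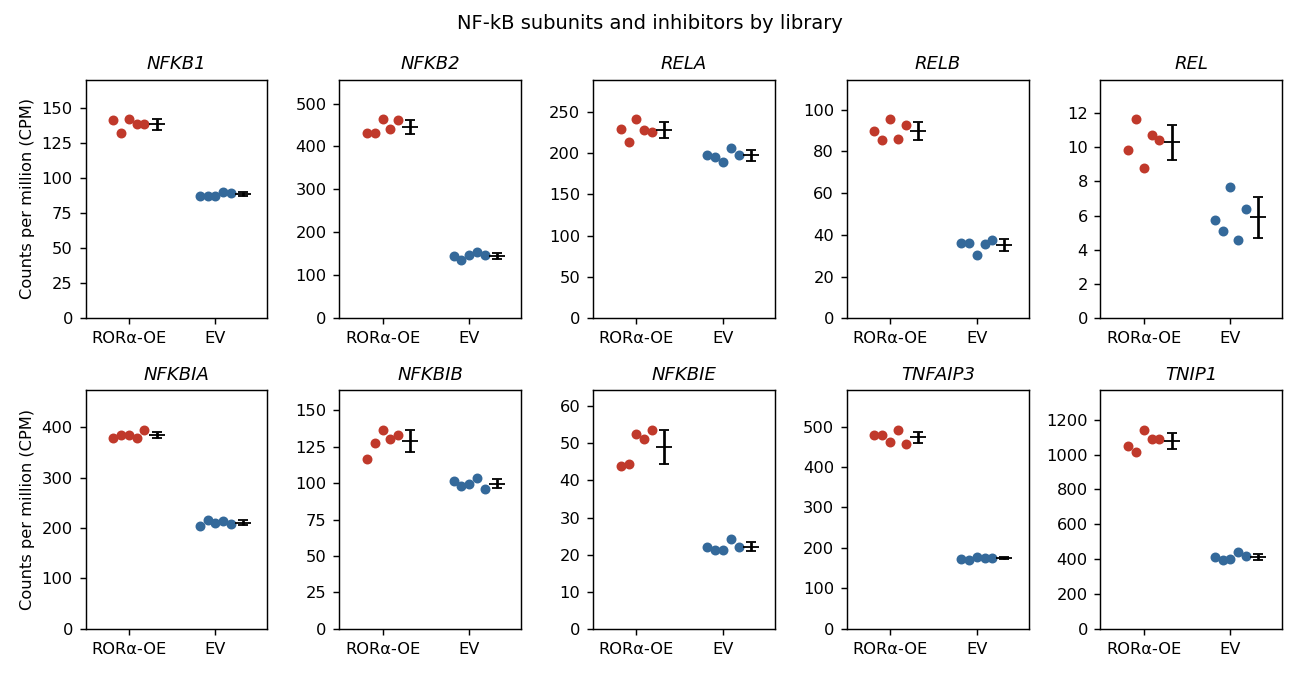
CPM of the 10 genes in each library, with RORα overexpression (red) left of empty vector (blue), points for libraries and black bars for mean ± SD (n = 5 per group). All red points lie above all blue points in each panel, and the ratio of the lowest red to the highest blue point is largest for NFKB2 (2.79) and smallest for RELA (1.03).

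The 3 inhibitors rose by different amounts. NFKBIA (ENSG00000100906, chr14:35401511-35404749, minus strand), the fast-acting inhibitor IkB alpha, stood at 379.5, 385, 384, 379.6 and 394 CPM in OE1 to OE5, against 204, 216, 210.2, 214 and 207 CPM in EV1 to EV5. Libraries of a group hardly differed, and the groups were well apart. Its log2 fold change was 0.87 ± 0.0297 (edgeR adjusted p = 1.44e-25). NFKBIE (ENSG00000146232, chr6:44258166-44265788, minus strand), IkB epsilon, which acts later than IkB alpha, stood at 44.0, 44.5, 52.5, 51.1 and 53.6 CPM in OE1 to OE5, against 21.9, 21.1, 21.3, 24.2 and 22.0 CPM in EV1 to EV5. OE1 and OE2 lay below the other overexpression libraries but above every empty vector library. The log2 fold change was 1.15 ± 0.0614 (edgeR adjusted p = 3.65e-19). NFKBIB (ENSG00000104825, chr19:38899700-38908893, plus strand), IkB beta, stood at 117, 127, 136, 130.1 and 133 CPM in OE1 to OE5, against 102, 97.8, 99.8, 103 and 95.9 CPM in EV1 to EV5. OE1 came nearest to the empty vector libraries, and the log2 fold change was 0.37 ± 0.0399 (edgeR adjusted p = 2.92e-10). In GENCODE 29, 40 exon bases of NFKBIB overlap SIRT2 on the opposite strand, and the labels name no step that marks strand.

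TNFAIP3 and TNIP1 act above IKK. TNFAIP3 (ENSG00000118503, chr6:137867188-137883312, plus strand) encodes A20, a ubiquitin-editing enzyme that dismantles receptor signalling complexes. It stood at 479, 478, 462, 491 and 458 CPM in OE1 to OE5, against 174, 170.1, 177, 175 and 176 CPM in EV1 to EV5. No library departed from its group, and the log2 fold change was 1.44 ± 0.0302 (edgeR adjusted p = 9.89e-33). TNIP1 (ENSG00000145901, chr5:151029945-151093577, minus strand) encodes ABIN1, a ubiquitin-binding partner that recruits A20. It had the most counts of the 10, at 1049.7, 1017, 1140.0, 1087 and 1092 CPM in OE1 to OE5, against 414, 398, 399, 441 and 419.8 CPM in EV1 to EV5. The nearest libraries, OE2 and EV4, still differed 2.31-fold, and the log2 fold change was 1.38 ± 0.0309 (edgeR adjusted p = 8.34e-32).

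**Figure D2:**
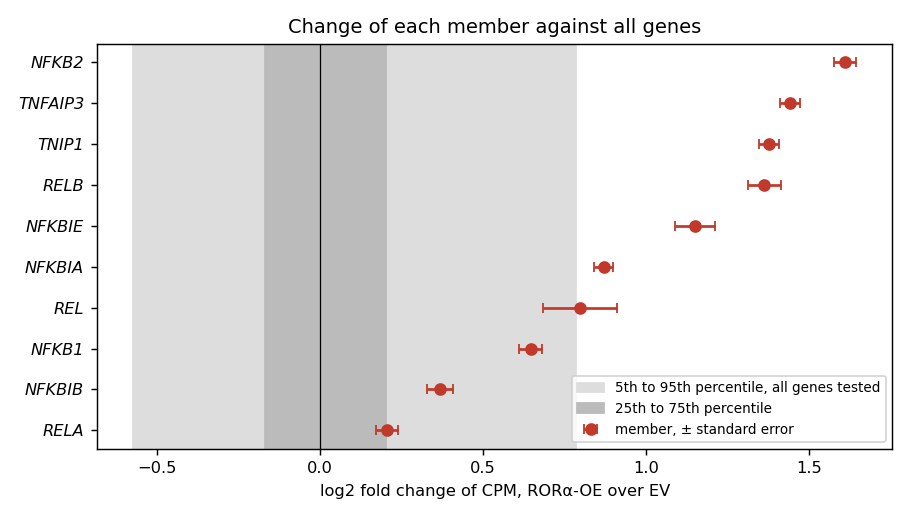
Log2 fold change of CPM (RORα overexpression over empty vector) for each gene, with bars for the standard error, against grey bands for all 12520 genes tested. NFKB2, TNFAIP3, TNIP1, RELB, NFKBIE, NFKBIA and REL lie above the 95th percentile of all genes (0.78), and NFKB1, NFKBIB and RELA lie below it.

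Because the genes rose unequally, their proportions within a library differed between the groups. Ratios of counts per exon length were compared by exact two-sided permutation tests of 5 against 5 libraries. Such a ratio does not depend on how libraries are scaled, but its level depends on the gene lengths used, and 4 ratios were tested. The RELB to RELA ratio was 0.706, 0.721, 0.713, 0.676 and 0.738 in OE1 to OE5, against 0.327, 0.332, 0.287, 0.309 and 0.340 in EV1 to EV5. The ratio of NFKB2 to NFKB1 was 4.26, 4.55, 4.55, 4.42 and 4.64 in OE1 to OE5, against 2.29, 2.16, 2.36, 2.39 and 2.30 in EV1 to EV5. Both non-canonical transcripts thus gained on their canonical counterparts in all 5 overexpression libraries. NFKBIA per RELA was 3.81, 4.15, 3.68, 3.83 and 4.02 in OE1 to OE5, against 2.37, 2.55, 2.57, 2.39 and 2.41 in EV1 to EV5. TNFAIP3 per RELA was 2.26, 2.42, 2.08, 2.33 and 2.19 in OE1 to OE5, against 0.950, 0.944, 1.01, 0.916 and 0.962 in EV1 to EV5. The log2 differences were 1.16 for RELB to RELA, 0.96 for NFKB2 to NFKB1, 0.66 for NFKBIA to RELA and 1.23 for TNFAIP3 to RELA. Each had an exact permutation p of 0.00794, also after Benjamini-Hochberg adjustment over the 4, which is the smallest that 5 against 5 libraries allow. In the deposited FPKM, which use other gene lengths, RELB to RELA averaged 1.33 with RORα and 0.596 with empty vector, and NFKBIA to RELA 1.50 with RORα and 0.949 with empty vector.

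**Figure D3:**
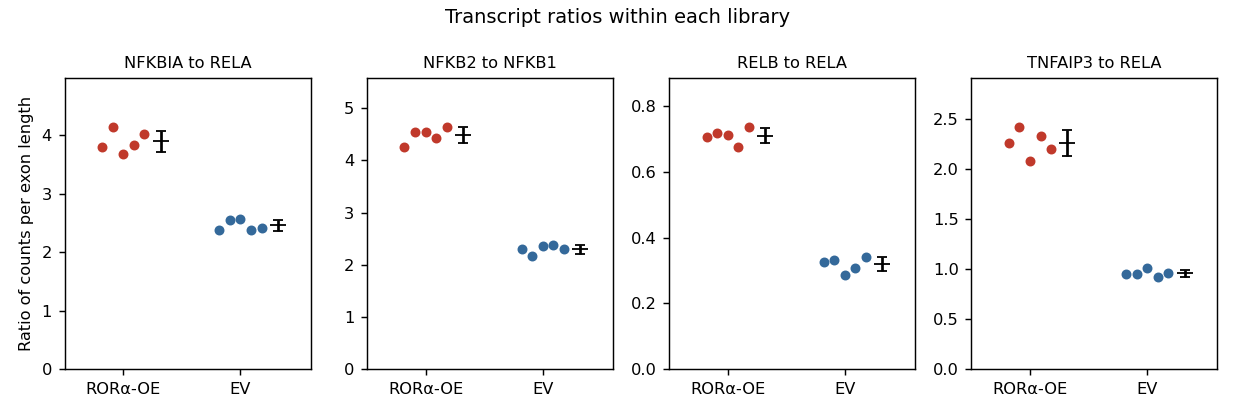
Ratio of counts per exon length between 2 genes in each library, RORα overexpression (red) left of empty vector (blue), with black bars for mean ± SD (n = 5 per group). In all 4 panels the overexpression libraries lie above the empty vector libraries, for RELB to RELA at 0.676 to 0.738 against 0.287 to 0.340.

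Per exon length, the levels of the genes can be compared with each other. Counts were divided by the union of a gene's annotated exons and scaled to TPM, a length-corrected share of all transcripts, over 12528 genes. The 5 subunits summed to 845 ± 25.6 TPM with RORα and 416 ± 8.33 TPM with empty vector (SD, n = 5 per group). NFKB2 made up 51.3% ± 0.666 of that sum with RORα and 34.3% ± 1.15 with empty vector. The share of RELA was 21.5% ± 0.481 with RORα and 38.1% ± 0.513 with empty vector. NFKB1 had a share of 11.4% ± 0.261 with RORα and 14.9% ± 0.253 with empty vector. RELB had 15.3% ± 0.314 with RORα and 12.2% ± 0.877 with empty vector. REL stayed below 1% in every library, at 0.331 to 0.476% with RORα and 0.351 to 0.632% with empty vector. RELA was thus the most abundant subunit transcript in all empty vector libraries and NFKB2 in all overexpression libraries.

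**Figure D4:**
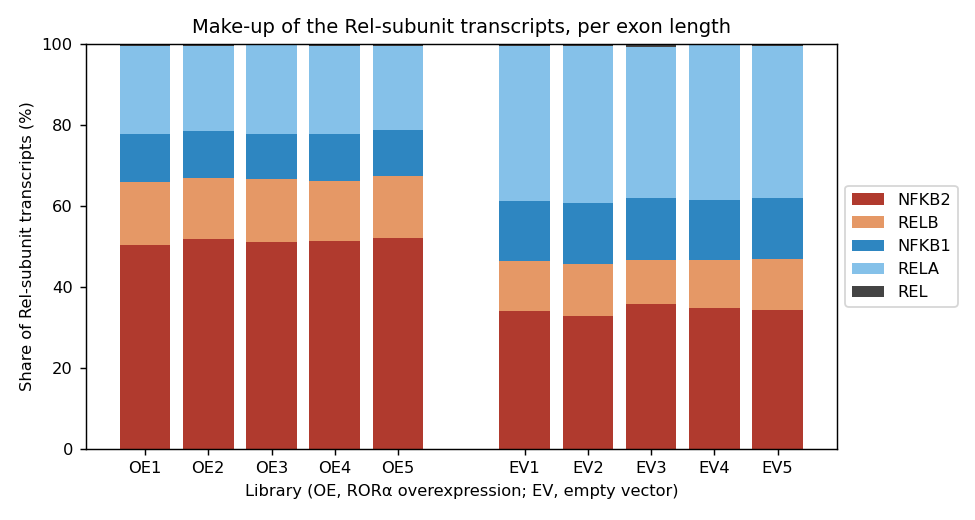
Share of each subunit in the summed Rel-subunit TPM (per cent) of each library, OE1 to OE5 left of EV1 to EV5. NFKB2 and RELB take more of each overexpression bar than of any empty vector bar, with NFKB2 at 50.3 to 52.1% against 32.8 to 35.9%.

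The inhibitors summed to 1032 ± 25.6 TPM with RORα and 615 ± 11.4 TPM with empty vector. By exon length NFKBIA was the largest part, at 68.5% ± 1.27 with RORα and 63.3% ± 0.879 with empty vector. NFKBIB took 23.4% ± 0.818 with RORα and 30.6% ± 0.731 with empty vector, and NFKBIE 8.04% ± 0.561 with RORα and 6.11% ± 0.275 with empty vector. In the deposited FPKM this order turned in both groups, with NFKBIB at 45.95% ± 0.791 with RORα and 56.4% ± 0.704 with empty vector, and NFKBIA at 33.02% ± 1.35 with RORα and 28.6% ± 0.780 with empty vector. In the order of all 10 genes with RORα, TNIP1 stood first at 811 TPM and NFKBIA next at 707 TPM, followed by NFKB2, TNFAIP3, NFKBIB, RELA, RELB, NFKB1, NFKBIE and REL at 3.41 TPM. NFKB2 and TNFAIP3, at 433 and 409 TPM, were neighbours whose libraries overlapped, and every other neighbouring pair was apart. With empty vector NFKBIA stood first at 389 TPM and TNIP1 next at 314 TPM, followed by NFKBIB, RELA, TNFAIP3, NFKB2, NFKB1, RELB, NFKBIE and REL. There the libraries of RELA and TNFAIP3 overlapped, at 158 and 152 TPM. These levels rest on the exon length chosen. With the longest basic transcript as the length, NFKB2 made up 47.3% with RORα and 30.04% with empty vector. In the deposited FPKM, which use another gene length, NFKB2 averaged 15.9 and RELA 8.03 with RORα, against 5.19 for NFKB2 and 6.92 for RELA with empty vector. NFKB2 thus stood above RELA with RORα and below it with empty vector on all 3 scales. The lengths behind the deposited FPKM are not given. NFKBIA, at 379.5 CPM and 11.9 FPKM in OE1, would need a length beyond its 2373 exon bases and beyond the whole gene. Levels of different genes in the deposited FPKM, and the order of NFKBIA and NFKBIB there, are therefore uncertain.

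The rest of the pathway was followed through 8 lists of genes by role, 147 genes of which 131 were tested. The test called 74 of them higher and 21 lower and left 36 uncalled (median log2 fold change 0.26). These are 56.5% higher and 16.03% lower, beside 28.6% and 27.5% of all genes tested, whose median was 0.00. Target genes had the highest median of the 8 lists. The test called 30 of the 34 higher and 2 lower, and 23 of the rises reached 2-fold, 67.6% of the list beside 3.28% of all genes (median log2 fold change 1.41). CXCL8, a neutrophil-attracting chemokine, averaged 585 ± 36.1 CPM with RORα and 54.3 ± 3.16 CPM with empty vector (log2 fold change 3.43, edgeR adjusted p = 3.03e-40). CXCL5, of the same chemokine family, averaged 60.2 ± 3.68 CPM with RORα and 5.19 ± 0.465 CPM with empty vector (3.53). CSF3, the granulocyte growth factor, had 879 counts in the overexpression libraries and 22 in those of the empty vector. The 2 targets that fell, chosen after their values were seen, were CXCL10, an interferon-induced chemokine, at 3.22 ± 0.545 CPM with RORα and 18.6 ± 1.40 CPM with empty vector, and IL11, a cytokine of the interleukin 6 family, at 26.5 ± 1.97 CPM with RORα and 34.4 ± 2.73 CPM with empty vector.

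Among ligands, 4 of 8 tested rose, 2 fell and 2 did not pass (median 0.43), beside 28.6% higher and 27.5% lower of all genes. IL1B and IL1A, the interleukin 1 cytokines that signal to NF-kB, averaged 136 ± 3.04 and 23.2 ± 2.66 CPM with RORα, against 34.5 ± 2.10 and 6.60 ± 0.904 CPM with empty vector. TNFSF15, a ligand of the TNF family, fell to 19.6 ± 0.970 CPM with RORα, against 76.2 ± 1.54 CPM with empty vector (log2 fold change -1.96). TNFSF10, which encodes TRAIL and was chosen after its values were seen, was the other that fell, at 1.04 ± 0.170 CPM with RORα and 1.596 ± 0.499 CPM with empty vector (edgeR adjusted p = 0.0346). Of 13 receptor genes 7 rose, none fell and 6 did not pass (median 0.29). These are 53.8% higher and 0% lower, beside 28.6% and 27.5% of all genes. IL1R1, the interleukin 1 receptor, averaged 20.003 ± 2.45 CPM with RORα and 7.62 ± 0.354 CPM with empty vector, and TNFRSF10B, a TRAIL receptor, 190.0 ± 7.22 and 96.5 ± 4.98 CPM in the same order. TNFRSF1B, the second TNF receptor, had 176 counts in all overexpression libraries and 20 in those of the empty vector. The main TNF receptor gene TNFRSF1A, chosen after its values were seen, averaged 215 ± 6.47 CPM with RORα and 224 ± 3.42 CPM with empty vector (edgeR adjusted p = 0.118).

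Adaptors, ligases and kinases act between receptor and IkB. Of 23 adaptor and ubiquitin ligase genes 11 rose, 4 fell and 8 did not pass (median 0.12), so that 65.2% were called beside 56.1% of all genes. By direction, 47.8% were higher and 17.4% lower, beside 28.6% and 27.5% of all genes. TRAF1 and BIRC3, a TRAF adaptor and a ubiquitin ligase bound to TRAF complexes, averaged 217 ± 9.98 and 491 ± 43.4 CPM with RORα, against 39.8 ± 3.13 and 101 ± 9.91 CPM with empty vector. BIRC2, the paralog of BIRC3, rose by 0.86 on the log2 scale. MALT1, a scaffold and protease of antigen receptor signalling, fell to 43.4 ± 2.27 CPM with RORα, against 78.2 ± 3.49 CPM with empty vector, and UBE2L3, CUL1 and FBXW11 also fell (these 4 were chosen after their values were seen). Of 15 kinase genes 6 rose, 2 fell and 7 did not pass (median 0.10), and the share called, 53.3%, is near the 56.1% of all genes. Of these kinase genes 40% were higher and 13.3% lower, beside 28.6% and 27.5% of all genes. IKBKE, an IKK-related kinase, averaged 37.7 ± 0.577 CPM with RORα and 18.3 ± 1.15 CPM with empty vector, and IRAK2 and RIPK2, kinases below interleukin 1 and NOD receptors, had log2 fold changes of 0.87 and 0.77. The 2 that fell, chosen after their values were seen, were MAP3K7, the kinase TAK1 that activates IKK (-0.36), and TBK1, an IKK-related kinase (-0.22). The 3 genes of the core IKK complex, chosen after their values were seen, were IKBKB (log2 fold change 0.33, edgeR adjusted p = 9.18e-08), CHUK (-0.04, adjusted p = 0.473) and IKBKG (0.12, adjusted p = 0.124).

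Negative regulators other than the 10 genes moved mostly up, with 11 of 17 genes higher, 2 lower and 4 that did not pass (median 0.20), or 64.7% higher beside 28.6% of all genes. USP18, a protease of the interferon system, averaged 16.8 ± 1.51 CPM with RORα and 8.30 ± 1.16 CPM with empty vector. ZC3H12A, an RNase that degrades cytokine transcripts, averaged 29.8 ± 2.04 and 16.5 ± 1.46 CPM, and SQSTM1, the autophagy adaptor p62, 618 ± 19.8 and 334 ± 13.4 CPM, with RORα given before empty vector. The 2 that fell, RNF11 and PDLIM2, had log2 fold changes of -0.26 and -0.35. CYLD, a deubiquitinase that opposes IKK activation, rose by 0.38 on the log2 scale, and these 3 were chosen after their values were seen. Of 5 further genes, 4 of the IkB or IkB-like type and IKBIP, which encodes a protein that binds IKK, 3 rose, 1 fell and 1 did not pass (median 0.24). These are 60% higher and 20% lower, beside 28.6% and 27.5% of all genes. NFKBIZ, a nuclear IkB that promotes part of the target genes, averaged 155 ± 4.39 CPM with RORα and 75.9 ± 2.07 CPM with empty vector, BCL3, a nuclear partner of the NFKB1 and NFKB2 products, rose by 0.54 on the log2 scale, and IKBIP fell by 0.28. Among cofactors 2 of 16 were higher, 8 lower and 6 did not pass (median -0.13), beside 28.6% higher and 27.5% lower of all genes. PPARG, a nuclear receptor, averaged 9.39 ± 0.939 CPM with RORα and 14.7 ± 1.25 CPM with empty vector, and HDAC2, a histone deacetylase, 138 ± 7.79 and 198 ± 6.16 CPM in the same order. SIRT6, a deacetylase that binds RELA, rose by 0.47 on the log2 scale.

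**Figure D5:**
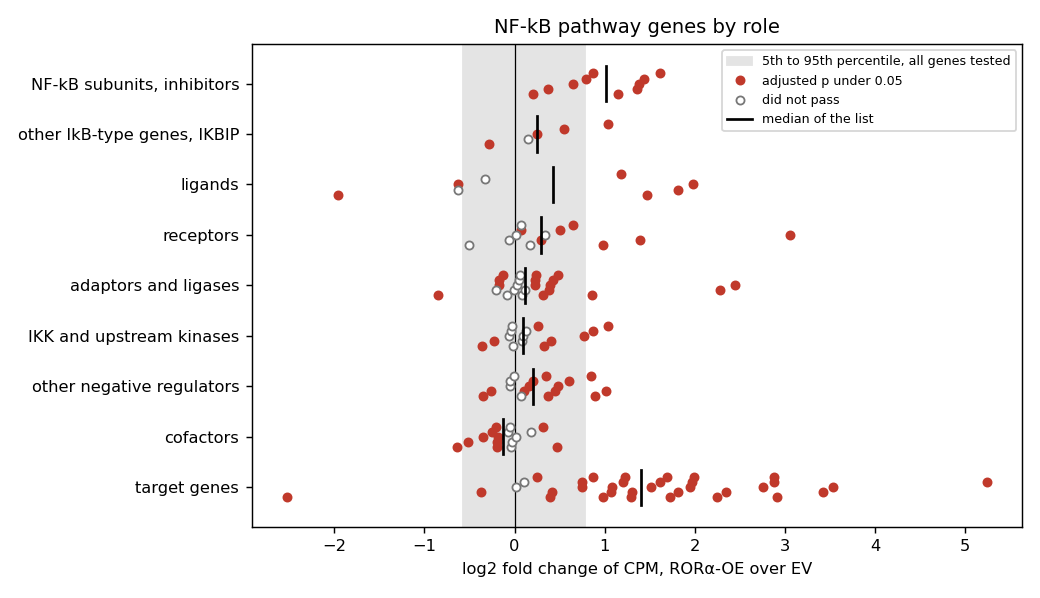
Log2 fold change of CPM (RORα overexpression over empty vector) of every gene tested in each role, filled where the adjusted p was under 0.05, with a black line at the median of each list and a grey band for the 5th to 95th percentile of all genes tested. The 10 subunit and inhibitor genes lie to the right of 0, as do 32 of 34 target genes, while every other list spreads on both sides.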

How the data were processed

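RNA was taken by poly-T selection and random priming, per the labels. The submitters' processing notes name HISAT2 2.2.1, HTSeq and GRCh38, and the annotation and the filter that left 12540 genes are not given in the sources used here. Per the file headers, the authors deposited raw read counts and FPKM for each gene and library. The deposited FPKM equalled the count over its column total and 1 length per gene to a relative deviation of 2.43e-05. Those lengths are not given, and for NFKBIA the length implied is longer than the gene.

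Low genes were removed with filterByExpr at its minimum count of 10 and minimum total of 15, leaving 12520. Counts were scaled by TMM (factors 0.991 to 1.01) and fitted by edgeR 4.0.16 (glmQLFit, glmQLFTest, two-sided) in R 4.3.3, with Benjamini-Hochberg adjustment over all genes and a threshold of 0.05. The fit was tested on simulated data. Library totals of 17475342 to 21956761 counts put the upper limit of an unseen gene, taken as 3 counts, at 0.137 to 0.172 CPM, for counting error only. Positions and exon lengths came from GENCODE 29, promoters from RefSeq. Replicate libraries were no copies (chi-square per degree of freedom 2.28 to 5.74 over 20 pairs within groups).

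The genes and lists were chosen with earlier results of these data known. Named were the 10 genes, RORA, and from each of 8 lists the 3 past the threshold with the largest change and groups apart, and other genes are marked where they occur, except the cell type markers, which are named from their own lists. The alternatives tried were DESeq2 1.42.0, other scalings, filters, a replicate block, leaving out each library and limma 3.58.1 on FPKM.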

Additional observations from a re-analysis of the deposited data

Results flagged for a closer look

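Among 30 groups of 5 libraries checked for a library far from the rest (10 genes, RORA and 4 ratios in each group), 2 were past the 95% critical value of Dixon's test, 0.71, where chance alone flags about 1 group in 20. RELB stood at 30.1 CPM in EV3, against 35.4 to 37.5 CPM in the other empty vector libraries. NFKBIE stood at 24.2 CPM in EV4, against 21.1 to 22.0 CPM in the other empty vector libraries. Without EV3 the log2 fold change of RELB was 1.31, and without EV4 that of NFKBIE was 1.18 (edgeR). What set these libraries apart was not tested.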

How the results depend on the processing

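Each of the 10 genes rose past the threshold in every alternative that could test it, 20 for each gene but REL, which was below the FPKM filter in 2. NFKB2 ranged from 1.45 to 1.63 on the log2 scale, RELA from 0.19 to 0.23 and NFKBIA from 0.79 to 0.88. The 5 rises of at least 2-fold became 4 by limma on log2(FPKM + 1), with or without the FPKM filter, where NFKBIE stood at 0.96. On log2(FPKM + 1), by limma, the difference was 0.73 for RORA, 0.43 for NFKB1 and 0.13 for REL, since the added 1 is large against their FPKM. Genes called numbered 7026, and 6663 to 7019 when 1 library was left out. The replicate block gave 6950 calls and left all 10 genes called. Replicate numbers did not pair the libraries, with residual correlations of -0.05 to 0.05 between same-numbered libraries, and 1 of 5 overexpression libraries correlated best with its own number. With 1 library left out, the log2 difference was 0.64 to 0.68 for NFKBIA to RELA, 0.94 to 0.98 for NFKB2 to NFKB1, 1.12 to 1.18 for RELB to RELA and 1.21 to 1.26 for TNFAIP3 to RELA, with p at the smallest that design allows. The order of levels depended on the gene length. With the deposited FPKM, whose gene length is the authors' own, 2 of the 10 genes held the same rank with RORα and 4 with empty vector. With the longest basic transcript, chosen after seeing the data, 8 held the same rank with RORα and 4 with empty vector. REL, at 4.57 to 11.6 CPM, had the fewest counts of the 10.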
